A study of Mus musculus with 12 samples.

Results

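Collagen chains are the genes that encode the polypeptides of the collagen family, and they were taken here as every gene whose mouse symbol reads Col, a type number, the letter a and a chain number. The expression table held 44 such genes among 55487, and no symbol was repeated. Of these, 21 reached an FPKM (fragment counts corrected for transcript length and for the mapped total of each library) of 1 or more in at least 3 of the 12 libraries and were tested, as were 13001 genes in all. Heart RNA came from wild-type mice in 4 groups of 3 libraries. Sham mice had the chest opened without occlusion of a coronary artery and drank normal water. I/R mice (ischemia/reperfusion) had the left anterior descending coronary artery closed for 45 min and then reopened for 24 h, also on normal water. Sham+B12 and I/R+B12 mice had the same operations after 7 days of vitamin B12 in the drinking water at 50 mg/L, at an intake of 4 mL per day. Strain, sex, age and the part of the heart sampled are not given in the sources used here. They also do not state whether each library is a separate mouse, or whether libraries of a group came from different days or litters. The spread between libraries may therefore be partly technical.

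Collagen chains wind in threes into a triple helix, and the helices then assemble outside the cell. Types I, III and V (the fibrillar chains) form the fibers that give the myocardium its tensile strength and, after an infarct, its scar. Type IV forms the sheet-like network of basement membranes around capillaries and cardiomyocytes, type VI forms beaded filaments beside it, and types XV and XVIII link basement membranes to the surrounding matrix. In the heart, fibroblasts make most of the fibrillar collagen, while type IV collagen is made by several cell types, endothelial and mural cells among them. Since these are bulk samples, fewer cells of a type and less RNA per cell cannot be told apart in any of the values given here.

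Some libraries stood apart from their groups, and all labels were kept as given. Across genes, the library closest to the one labelled Sham 3 was I/R+B12 1 (r = 0.969), the closest to the one labelled I/R 3 was Sham 2 (r = 0.982), and the closest to I/R+B12 1 was I/R 1 (r = 0.979). The closest to I/R+B12 3 was Sham 3 (r = 0.955), and I/R+B12 2 had the lowest closest r (0.947, with I/R+B12 3). The summed FPKM of 6 neutrophil markers was 14.7 in I/R 3 against 1221 and 1184 in I/R 1 and 2, and it was 61.8 in Sham 3 against 6.19 and 10.7 in Sham 1 and 2. In I/R+B12 3 it was 96.9, against 715 and 1960 in I/R+B12 1 and 2. Heart muscle markers were high everywhere (summed FPKM of 7 markers from 26694 to 38962), skeletal muscle markers were low (5 markers, at most 5.66) and cartilage markers reached 15.1. Depth, read from the spacing of the lowest FPKM values, was about 24.5 to 29.25 M fragments per library, so that an FPKM of 1 over 1500 nt stands for about 36.75 to 43.88 fragments.

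The type IV chains Col4a1 and Col4a2 form the common basement membrane heterotrimer. They were the only chains with an adjusted p under 0.05 in the main limma fit, in I/R+B12 against Sham+B12. That is 2 of 21 tested chains (9.52%), near the 10.4% of all tested genes. Neither passed when Sham+B12 1 or Sham+B12 3 was left out. The genes lie head to head on chromosome 8 (mm10, coordinates from GENCODE M21), Col4a1 at 11198423 to 11312826 on the minus strand and Col4a2 at 11312805 to 11449287 on the plus strand, and their annotated ends overlap by 22 bases. A shared bidirectional promoter drives both. Their RefSeq promoter windows (GRCm38.p6, 250 bases before to 50 after each start) are printed because both windows hold the same 78 bases, given in capitals, as reverse complements of each other. The Col4a1 window is chr8:11312777-11313076 on the minus strand and the Col4a2 window is chr8:11312555-11312854 on the plus strand.
Col4a1: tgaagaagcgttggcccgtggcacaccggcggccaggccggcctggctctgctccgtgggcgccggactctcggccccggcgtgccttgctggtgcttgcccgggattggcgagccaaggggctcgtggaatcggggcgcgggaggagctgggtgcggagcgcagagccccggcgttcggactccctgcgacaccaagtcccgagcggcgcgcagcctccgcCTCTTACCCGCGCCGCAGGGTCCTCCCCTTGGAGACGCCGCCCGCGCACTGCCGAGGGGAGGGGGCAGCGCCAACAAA
Col4a2: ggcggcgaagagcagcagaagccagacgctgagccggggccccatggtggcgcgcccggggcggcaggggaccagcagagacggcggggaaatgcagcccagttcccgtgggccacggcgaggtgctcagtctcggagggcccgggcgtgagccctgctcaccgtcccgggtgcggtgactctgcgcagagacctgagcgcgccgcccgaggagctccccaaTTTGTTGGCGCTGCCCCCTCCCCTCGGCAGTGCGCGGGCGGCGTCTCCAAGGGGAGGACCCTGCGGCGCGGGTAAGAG

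For contrast, the windows of 2 fibrillar chains on other chromosomes are given. The Col3a1 window (chr1:45311288-45311587, plus strand) has its 1 TATAAA match in capitals, and the Col1a2 window (chr6:4505368-4505667, plus strand) has its 2 CCAAT matches in capitals, 1 of them on the opposite strand as ATTGG.
Col3a1: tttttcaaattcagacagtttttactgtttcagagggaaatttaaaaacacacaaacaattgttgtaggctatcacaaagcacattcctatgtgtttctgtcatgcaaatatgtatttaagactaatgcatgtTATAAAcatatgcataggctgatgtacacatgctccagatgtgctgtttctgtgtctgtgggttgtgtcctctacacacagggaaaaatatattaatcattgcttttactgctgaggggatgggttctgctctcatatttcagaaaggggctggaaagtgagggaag
Col1a2: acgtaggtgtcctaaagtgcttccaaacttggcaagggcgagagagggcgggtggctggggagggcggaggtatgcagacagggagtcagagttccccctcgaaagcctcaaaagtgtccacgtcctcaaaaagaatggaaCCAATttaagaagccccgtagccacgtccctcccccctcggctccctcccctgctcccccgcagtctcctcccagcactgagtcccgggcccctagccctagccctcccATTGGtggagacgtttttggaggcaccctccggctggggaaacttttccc
RefSeq windows were matched to 35 of the 44 chains, as 38 windows. Searched on both strands, TATAAA was present in 13.16% of the collagen windows and 13.62% of 32851 promoter windows of the same length. CCAAT was present in 34.21% and 37.41%, and GGGCGG, the GC box, in 60.53% and 35.66%. A match describes letters in the window and is not a measured binding site.

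Collagen expression in these hearts was led by a few chains. Col4a1 was the highest chain in 10 of 12 libraries and Col3a1 in the other 2. The 5 chains with the highest mean, Col4a1, Col4a2, Col3a1, Col1a2 and Col6a2, made up 64.7% to 86.5% of the summed collagen FPKM, depending on the library. Between 18 and 23 chains reached an FPKM of 1 per library, and 17 did so in all 12. The tested chains comprised 7 of 11 fibrillar, 4 of 6 type IV, 4 of 6 type VI, both of types XV and XVIII, 2 of 9 fibril-associated, 1 of 3 short-chain network and 1 of 4 transmembrane chains.

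The 23 chains that did not pass included 5 that reached 1 somewhere. Col11a2, a cartilage fibrillar chain, reached 1.68 FPKM in I/R+B12 2, Col26a1 reached 1.45 in Sham+B12 3, Col4a3 1.31 in Sham 2, the fibril-associated chain Col12a1 1.14 in I/R 1 and the cartilage chain Col9a2 1.05 in I/R 3. Col12a1 was at 1.14 and 0.98 FPKM in I/R 1 and 2 but at 0.30 in I/R 3, and its other libraries lay between 0.25 and 0.79. No chain was at 0 in all libraries. At the edge of the filter, Col27a1 passed with exactly 3 libraries, the 3 of the I/R group (1.56, 1.01 and 1.14 FPKM), so it had to be high there, while Col4a3 missed with 2 libraries. Col13a1, Col4a4 and Col6a6 were the other tested chains below 1 in some library.

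The composition of the collagen RNA differed most in the I/R+B12 hearts. Type IV chains made up 32.4% to 45.9% of the summed collagen FPKM in the Sham libraries, 37.6% to 41.0% in Sham+B12 and 34.2% to 37.0% in I/R, but 61.1%, 79.9% and 75.6% in I/R+B12 1, 2 and 3. Fibrillar chains made up 29.4% to 38.2%, 27.4% to 33.8% and 35.9% to 42.5% in the first 3 groups, and 21.4%, 8.75% and 12.4% in I/R+B12. Neither share overlapped between I/R+B12 and any other group. The 44 chains together summed to 579 ± 112 FPKM in Sham, 388 ± 61.7 in Sham+B12, 801 ± 111 in I/R against 576 ± 50.8 in I/R+B12 (SD, n = 3 each). These sums are descriptions, with no test.

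**Figure D1:**
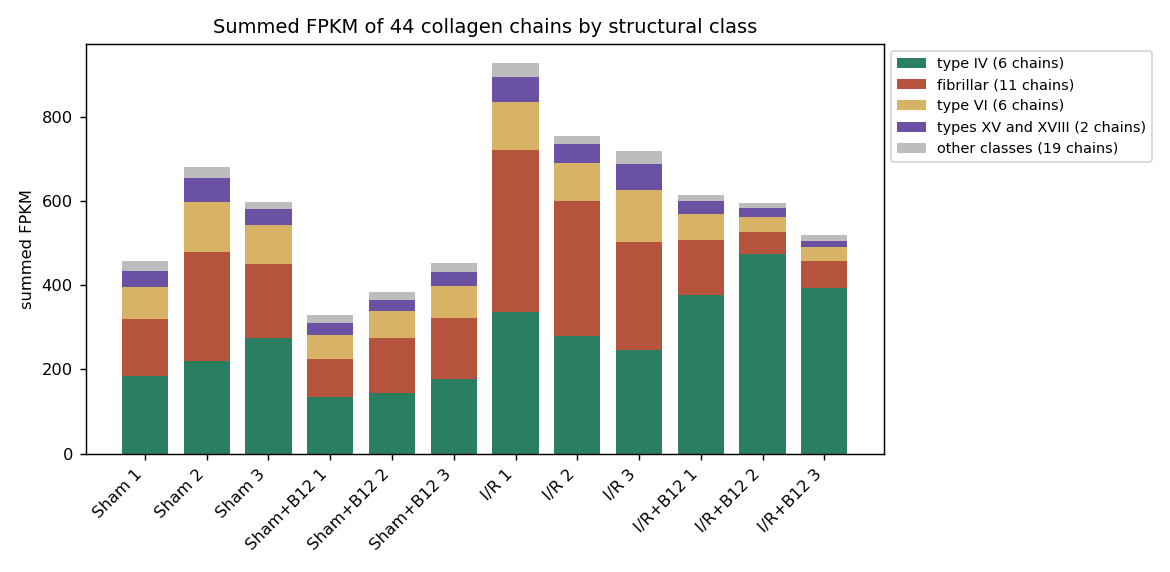
Summed FPKM (vertical axis) of the 44 collagen chains in each of the 12 libraries (horizontal axis), stacked by structural class. The green type IV block is at 375.81, 475.41 and 392.46 in the 3 I/R+B12 libraries and at most 336.6 elsewhere, and there the red fibrillar block is at 131.84, 52.1 and 64.5.

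In mice given B12, the I/R hearts had higher Col4a1 and Col4a2 than the sham hearts, and these were the chains called in that comparison. Col4a1 was at 207.58, 320.46 and 258.82 FPKM in I/R+B12 1, 2 and 3, against 75.56, 84.51 and 100.72 in Sham+B12 1, 2 and 3. Col4a2 was at 158.75, 151.23 and 128.78 against 51.81, 53.55 and 67.5. For both chains the lowest I/R+B12 library was above the highest Sham+B12 library. The mean of Col4a1 was 3.02-fold higher (262 ± 56.5 against 86.9 ± 12.7 FPKM, SD, n = 3) and that of Col4a2 2.54-fold higher (146 ± 15.6 against 57.6 ± 8.60). On the log2(FPKM + 1) scale used for all tests, Col4a1 rose by 1.57 (SE 0.19, adjusted p = 0.0155, limma) and Col4a2 by 1.33 (SE 0.20, adjusted p = 0.0155).

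Those 2 of 21 tested chains (9.52%) stand beside 10.4% of all tested genes called in the same comparison, so the share of chains called was near the background. Called higher were 6.78% of all genes and called lower 3.62%. The other tested type IV chains were not called. Col4a5, a chain of kidney and smooth muscle basement membranes, was at 8.27, 2.22 and 3.12 FPKM in I/R+B12 against 5.13, 3.57 and 5.30 in Sham+B12. Col4a4, its partner in the kidney, was at 0.64 to 0.77 against 1.39 to 1.79 FPKM (log2 difference -0.61, adjusted p = 0.166).

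Without Sham+B12 1 or Sham+B12 3 no chain was called (adjusted p = 0.0789 and 0.0863 for both Col4a1 and Col4a2), and without Sham+B12 2 Col4a1 alone was called. The log2 differences stayed between 1.41 and 1.73 for Col4a1 over all alternatives and between 1.14 and 1.45 for Col4a2.

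Below Sham+B12 were 4 of 7 tested fibrillar chains, all 4 tested type VI chains and Col15a1, and none of them was called. Col6a2, a core chain of the type VI filament, was at 24.8, 13.7 and 13.76 FPKM against 24.8, 28.57 and 32.8, so the groups met at 24.8 (log2 difference -0.73, adjusted p = 0.066). Col1a2, the second chain of type I collagen, was at 29.42, 13.72 and 21.07 against 29.66, 33.6 and 38.77, which do not overlap (-0.70, adjusted p = 0.0875). Col6a1, which pairs with Col6a2, was at 22.54, 15.08 and 18.51 against 23.66, 26.49 and 31.53, again with no overlap (-0.53, adjusted p = 0.113).

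Over the 21 tested chains the median log2 difference was -0.51, beside -0.02 for all genes, with 7 chains above 0 and 14 below. Groups were apart, with no overlap of libraries, for 2 chains in the higher and 7 in the lower direction, where 19.1% and 13.2% of all genes did so. The number of chains called also changed with I/R+B12 1, which was the highest of its group for 16 of 21 chains. Without I/R+B12 1, 12 chains were called, Col4a1 and Col4a2 higher and 10 lower, beside 10.4% of all genes higher and 19.2% lower. In that fit Col1a1, Col1a2 and Col3a1 were lower by log2 differences of -0.88, -0.95 and -1.42 (adjusted p = 0.0342, 0.0149 and 0.0220), with 2 libraries left in I/R+B12. With median-ratio scaling Col1a2 and Col6a2 were called lower as well, beside 6.55% of all genes called lower in that fit.

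**Figure D2:**
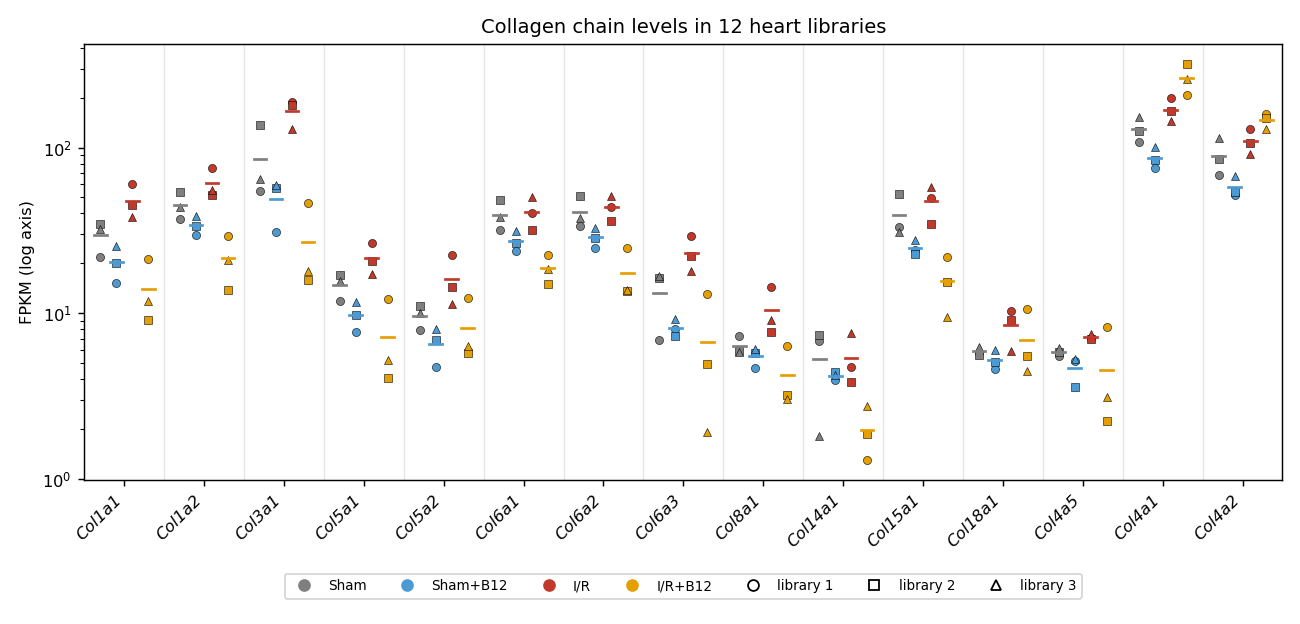
FPKM on a log axis (vertical) of 15 collagen chains (horizontal), with 1 point per library and a line at the group mean. Col4a1 and Col4a2 at the right are higher in the 3 I/R+B12 libraries (yellow) than in the 3 Sham+B12 libraries (blue), whereas the yellow points of Col1a1, Col1a2 and Col3a1 sit lowest or among the lowest.

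Among injured hearts, all 7 tested fibrillar chains had negative differences with B12, as did 71.8% of all genes, but no collagen chain and 0% of all genes passed the adjusted threshold in limma. Col27a1, 1 of the 7, was tested through its I/R libraries alone, so the filter favored its direction. Col3a1, the type III chain of young and pliable fibers, was at 188.4, 180.68 and 128.7 FPKM in I/R 1, 2 and 3 and at 46.5, 15.85 and 18.1 in I/R+B12 1, 2 and 3. The groups were far from overlapping, and the mean was 6.19-fold higher in I/R (166 ± 32.5 against 26.8 ± 17.1). The log2 difference was -2.73 (SE 0.43, adjusted p = 0.0739).

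Col1a1, the main chain of type I collagen and of scar tissue, was at 60.04, 44.81 and 37.99 FPKM in I/R against 21.27, 9.04 and 11.83 in I/R+B12 (-1.75, adjusted p = 0.0739). Col1a2 was at 75.55, 51.57 and 55.16 against 29.42, 13.72 and 21.07 (-1.51, adjusted p = 0.0739). Every I/R library was above every I/R+B12 library for both chains of type I collagen. Col5a1, the type V chain that sets where fibrils start, was at 26.45, 20.7 and 17.33 against 12.2, 4.07 and 5.22 (-1.57). Its partner Col5a2 was at 22.33, 14.47 and 11.35 against 12.36, 5.77 and 6.31, with I/R+B12 1 above I/R 3 (-0.92, adjusted p = 0.099).

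Outside the fibrillar class, Col6a2 was at 43.72, 36.02 and 50.98 FPKM in I/R against 24.8, 13.7 and 13.76 in I/R+B12 (-1.31, adjusted p = 0.0739). Col15a1, a heparan and chondroitin sulfate-bearing chain of the capillary basement membrane zone, was at 49.86, 34.37 and 57.66 against 21.73, 15.44 and 9.53 (-1.58, adjusted p = 0.0739). Neither chain overlapped between the groups. Col6a3, the long type VI chain, was at 29.36, 22.28 and 17.91 against 13.14, 4.91 and 1.93 (-1.92, adjusted p = 0.082), and Col8a1, a short-chain network collagen of vessel walls, was at 14.37, 7.72 and 9.11 against 6.37, 3.20 and 3.05 (-1.14, adjusted p = 0.078). Col18a1, the precursor of the fragment endostatin, was at 10.33, 9.13 and 5.92 against 10.65, 5.53 and 4.45 (-0.31, adjusted p = 0.45). Its overlap came from I/R+B12 1, which was above all I/R libraries, while I/R+B12 2 and 3 were below all of them.

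Col4a1 went the other way: its 3 I/R+B12 libraries (207.58 to 320.46 FPKM) were above its 3 I/R libraries (197.83, 165.17 and 143.73), with a log2 difference of 0.62 (adjusted p = 0.095). Col4a2 overlapped by a little, since I/R 1 at 130.26 was above I/R+B12 3 at 128.78 (0.43, adjusted p = 0.18). The transmembrane chain Col13a1 was the only other tested chain with a positive difference (0.11), at 1.43, 1.27 and 2.17 FPKM against 1.05, 2.20 and 2.37.

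Over the 21 chains the median log2 difference was -1.08, beside -0.21 for all genes. At an unadjusted p under 0.05, 1 chain was higher and 15 were lower, where 3.90% of all genes were higher and 24.6% lower. Groups did not overlap for 1 chain in the higher and 13 in the lower direction, beside 4.41% and 18.8% of all genes. Without Col27a1 the counts in the lower direction were 14 and 12. With median-ratio scaling the median of the chains was -0.82. Leaving out I/R+B12 1 gave 16 called chains, Col4a1 higher and 15 lower, beside 3.82% of all genes higher and 30.1% lower, and leaving out Sham 3, which enters only through the shared spread, gave 4 called lower, Col15a1, Col1a1, Col1a2 and Col3a1 (adjusted p = 0.0435 for Col3a1), beside 0.431% of all genes.

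**Figure D3:**
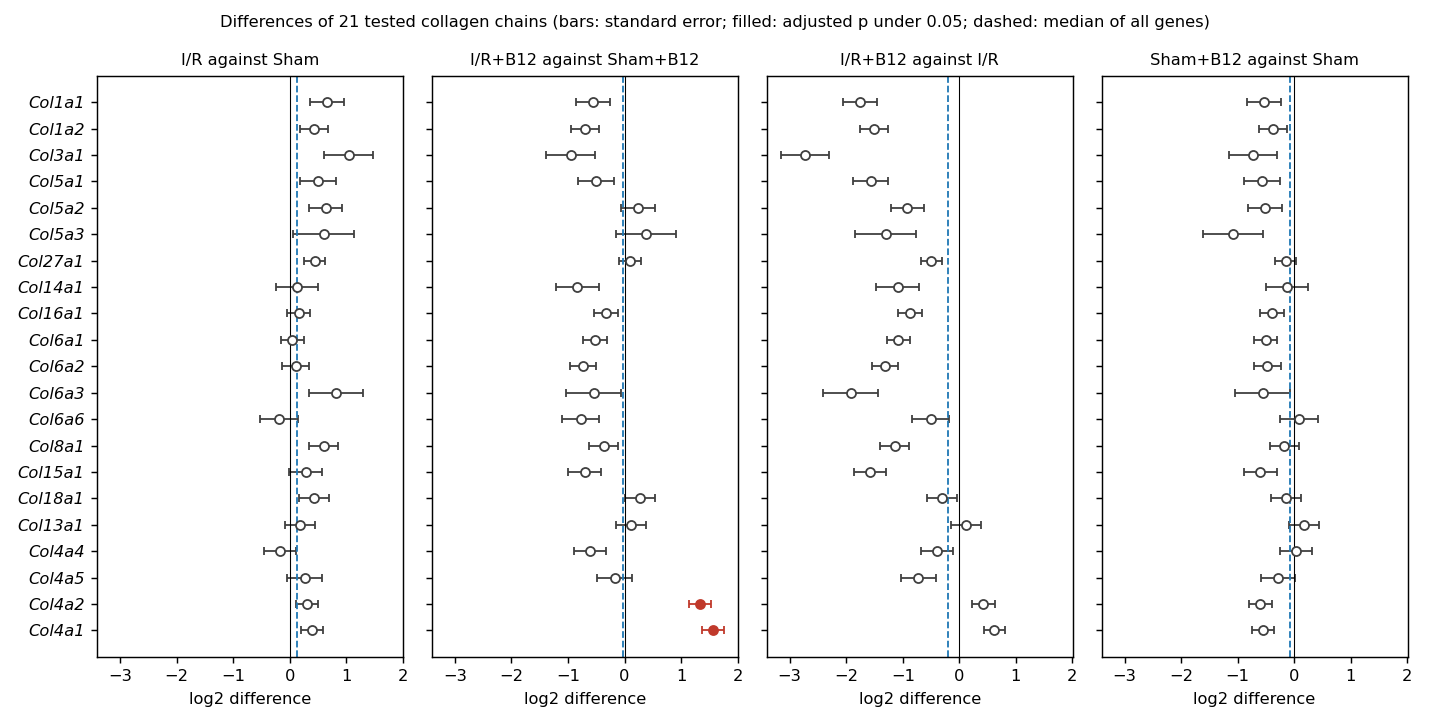
Log2 differences (horizontal axis) of the 21 tested chains (vertical axis) in 4 comparisons, with bars of 1 standard error, filled red points for adjusted p under 0.05 and a dashed line at the median of all genes. Only Col4a1 and Col4a2 are filled, in I/R+B12 against Sham+B12, and in I/R+B12 against I/R 18 of 21 points lie left of 0.

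On normal water, most chains were higher after I/R than after sham, and none was called, as for all genes (0%). Col3a1 was at 188.4, 180.68 and 128.7 FPKM in I/R against 54.87, 136.73 and 65.03 in Sham, so that Sham 2 was above I/R 3 (log2 difference 1.04, SE 0.43, adjusted p = 0.417). Col1a1 did not overlap, with 60.04, 44.81 and 37.99 against 21.89, 34.7 and 32.37 (0.67, adjusted p = 0.427). The differences of Col8a1 (0.60, adjusted p = 0.423), Col5a2 (0.64, 0.432) and Col27a1 (0.44, 0.423) also came without overlap, and Col27a1 had passed the filter through its I/R libraries alone.

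The type VI chains Col6a1 and Col6a2 had log2 differences of 0.05 and 0.10, while Col6a3 was at 29.36, 22.28 and 17.91 FPKM in I/R against 6.93, 16.23 and 16.81 in Sham (0.82, adjusted p = 0.494). The median over the 21 chains was 0.39, beside 0.13 for all genes, with 19 chains above 0, as were 69.1% of all genes. With median-ratio scaling 16 were above 0, and Col6a1 and Col6a2 turned to -0.11 and -0.06; they also turned without Sham 1 (-0.09 and -0.02) and without I/R 3 (-0.11 and -0.01). Without both Sham 3 and I/R 3, 14 were above 0. At an unadjusted p under 0.05, 4 chains were higher and 0 lower, where 10.6% of all genes were higher, and 7 chains did not overlap in the higher and 0 in the lower direction, beside 18.8% and 3.60% of all genes. Without Col27a1 the counts in the higher direction were 3 and 6. With library weights, which give less weight to libraries far from their group, 12 chains were called, 10 higher and 2 lower, beside 27.2% of all genes called higher and 6.75% lower in that fit.

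Among sham hearts, 18 of 21 chains had a negative difference with B12, as did 67.9% of all genes, and none was called, as for all genes (0%). Col13a1, Col4a4 and Col6a6 were above 0. Col4a2 was at 51.81, 53.55 and 67.5 FPKM in Sham+B12 and 68.23, 84.81 and 113.79 in Sham (-0.60, adjusted p = 0.999), and Col4a1 at 75.56, 84.51 and 100.72 against 107.99, 125.62 and 152.7 (-0.56). Neither overlapped between the groups. Col6a1 (-0.50), Col15a1 (-0.59) and Col5a3 (-1.08) were also without overlap, Col5a3 being at 1.57, 1.67 and 2.07 FPKM against 2.18, 6.02 and 7.93. In all, 8 chains were lower and 0 higher without overlap, beside 8.98% and 1.54% of all genes, 3 were lower at an unadjusted p under 0.05 (1.18% of all genes), and the median was -0.48, beside -0.07 for all genes. This comparison shares the Sham+B12 libraries with the one of I/R under B12, so the low Col4a1 and Col4a2 in Sham+B12 enters both. Against Sham rather than Sham+B12, the I/R+B12 means of 262 and 146 FPKM stand beside 129 ± 22.5 for Col4a1 and 88.9 ± 23.1 for Col4a2.

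The interaction test asks directly whether the I/R difference under B12 differed from that on normal water. No chain and 0% of all genes passed. Col4a1 (1.18, SE 0.27) and Col4a2 (1.02, SE 0.28) had positive and Col3a1 (-2.0, SE 0.61), Col1a2 (-1.13, SE 0.36) and Col1a1 (-1.22, SE 0.43) negative interactions, with adjusted p of 0.387 for the first 4 and 0.401 for Col1a1. At an unadjusted p under 0.05, 2 chains were positive and 7 negative, beside 3.41% and 8.86% of all genes. The median was -0.57, beside -0.14 for all genes, and 9 chains passed without I/R+B12 1, 1 positive and 8 negative, beside 2.01% and 12.1% of all genes.

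Ratios within a library do not depend on its scaling and show which chains moved apart. Chains that share a trimer did not all keep a narrow ratio. Col1a1 to Col1a2 lay between 0.514 and 0.869 in all 12 libraries and Col6a1 to Col6a2 between 0.880 and 1.35, while Col6a3 to Col6a1 ranged from 0.104 in I/R+B12 3 to 0.724 in I/R 1. Col4a1 to Col4a2 lay between 1.34 and 1.58 in the 9 libraries outside I/R+B12, and was 1.31, 2.12 and 2.01 within it. Col3a1 to Col1a1 was 3.14 to 4.03 in I/R against 1.53 to 2.19 in I/R+B12. The neighbors Col3a1 and Col5a2, which lie end to end on chromosome 1 with 24614 bases between them, did not move in proportion, as Col5a2 to Col3a1 was 0.266 to 0.364 in I/R+B12 and at most 0.155 in every other library.

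**Figure D4:**
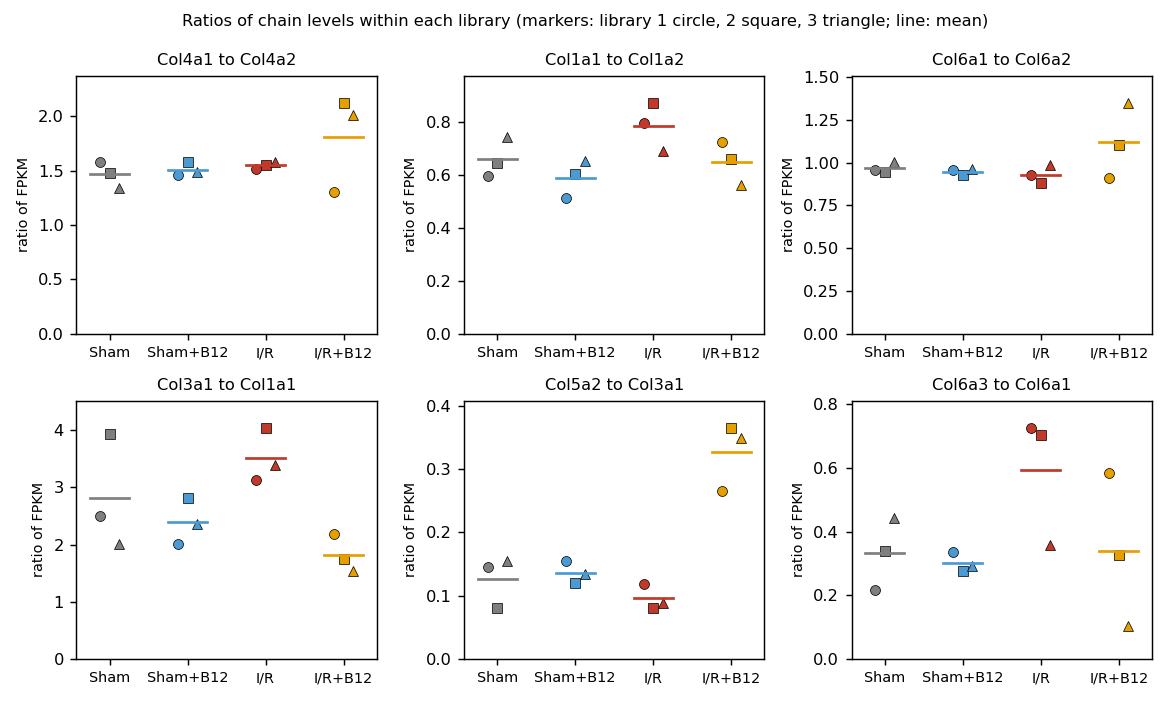
Ratio of FPKM (vertical axis, from 0) for 6 pairs of chains in each library, by group (horizontal axis), with a line at the group mean. Col5a2 to Col3a1 is above 0.26 only in I/R+B12, and Col4a1 to Col4a2 spreads from 1.31 to 2.12 there while staying between 1.34 and 1.58 elsewhere.

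A few chains followed the libraries that stood apart rather than their labels. Col14a1, a chain that sits on the surface of fibrils, was at 6.75 and 7.41 FPKM in Sham 1 and 2 but 1.81 in Sham 3, and at 4.76 and 3.84 in I/R 1 and 2 but 7.58 in I/R 3. Col4a4 was at 1.87, 2.41 and 0.64 FPKM in Sham and 0.88, 0.80 and 2.30 in I/R, and Col6a6, an alternative long type VI chain, was at 1.35, 2.62 and 0.51 and at 0.77, 0.54 and 2.20. In all 3 the library labelled Sham 3 was below the other Sham libraries and that labelled I/R 3 above the other I/R libraries. Col4a4 and Col6a6 were singled out after their values were seen. Leaving out both Sham 3 and I/R 3, a choice also made after seeing the data, turned the I/R against Sham difference of Col14a1 from 0.13 to -0.61 (adjusted p = 0.231). In that fit Col14a1, Col4a4 and Col6a6 were also called lower in I/R+B12 against Sham+B12, beside 4.52% of all genes. Their log2 differences there, -0.83, -0.61 and -0.78 (adjusted p = 0.0270, 0.0321 and 0.0432), were those of the main fit. The 2 libraries enter this comparison only through the shared spread. These 3 chains are shown because the 2 libraries lay apart in them. Leaving those libraries out narrows the spread of the chains, so the calls give no separate support.

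Markers of several cell types are given beside these results. The 8 fibroblast markers summed to 1369 to 1635 FPKM in Sham, 1294 to 1378 in Sham+B12, 1192 to 1639 in I/R against 944 to 1116 in I/R+B12, so the mean was 1.35-fold higher in I/R than in I/R+B12, against 3.88-fold for the fibrillar chains. Gsn was the largest part of these sums, its mean being 702 after I/R alone and 570 after I/R with B12. The 8 did not move evenly: the mean of Lum went from 41.1 to 16.6 and that of Pdgfra from 14.85 to 12.8. All 8 had negative differences in that comparison, as did 71.8% of all genes, and 3 were lower without overlap, beside 18.8%. None of the 8 was called in any comparison (median log2 difference of -0.44 between I/R+B12 and I/R). The 7 markers of activated fibroblasts summed to 125 to 214 in I/R against 94.4 to 158 in I/R+B12. These markers split by direction, with 4 below 0 and 3 above, where 71.8% of all genes were below 0. None was called between these 2 groups, and their median log2 difference was -0.76, beside -0.21 for all genes. With B12 the mean of Fn1 went from 52.5 to 22.3 and that of Postn from 26.7 to 13.9. Means of Acta2 and Lox rose, from 64.8 to 72.8 and from 5.96 to 10.7. The 7 endothelial markers summed to 494 to 581 FPKM in I/R+B12 against 437 to 504 in Sham+B12. Their mean sum was 1.14-fold higher, against 2.73-fold for type IV chains, and 1 of the 7 was called higher (6.78% of all genes). By marker, 4 of the 7 were above 0 and 3 below, where 48.1% of all genes were above 0. Their median log2 difference was 0.01, beside -0.02 for all genes. The mean of Pecam1 went from 96.4 in Sham+B12 to 150 in I/R+B12, and that of Kdr from 37.9 to 30.5. The 8 mural markers summed to 185 to 255 in I/R+B12, 257 to 284 in Sham+B12 and 319 to 361 in I/R, and 2 of 8 were called lower against Sham+B12 (3.62% of all genes). The 6 macrophage markers summed to 306 to 390 FPKM in I/R against 108 to 242 in I/R+B12, and none was called, as for all genes (0%). All 6 were lower at an unadjusted p under 0.05, beside 24.6% of all genes, and 5 without overlap, beside 18.8%. Their median log2 difference was -1.32, beside -0.21 for all genes. The 6 neutrophil markers summed to 96.9 to 1960 FPKM in I/R+B12 against 0.67 to 33.6 in Sham+B12, with 2 of 6 called higher (6.78% of all genes). Their median log2 difference was 4.07. All markers of these 6 lists passed the filter, and the adipocyte list had none that did. Mmp8 and Cxcr2 of the neutrophil list and Cthrc1 of activated fibroblasts reached an FPKM of 1 only in I/R and I/R+B12 libraries. For these markers the filter favored a higher level after I/R. The part of these cell types in the collagen results was not tested.

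**Figure D5:**
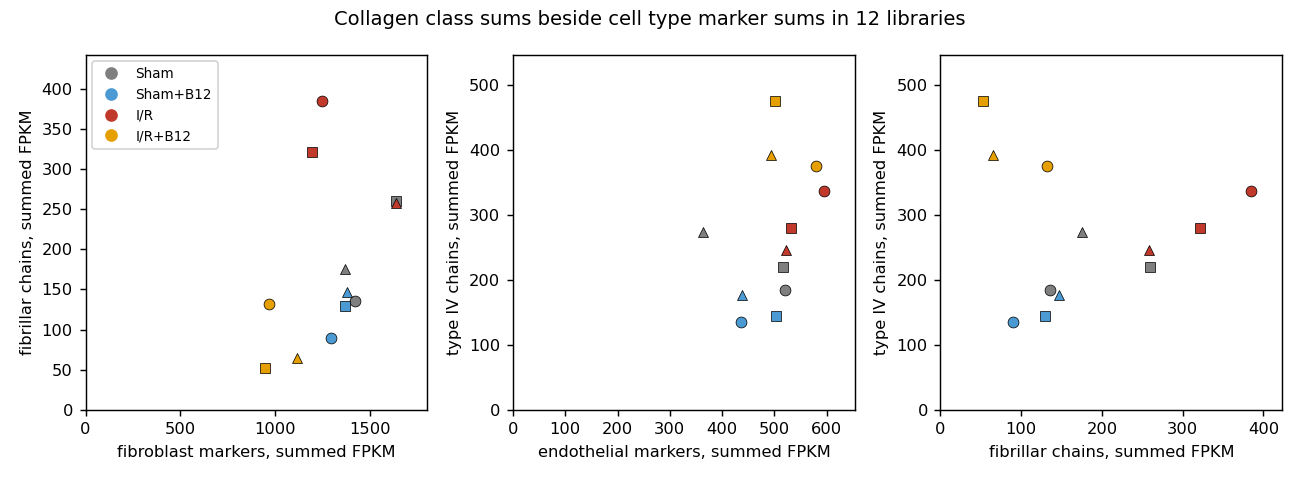
Summed FPKM of fibrillar and type IV chains (vertical axes) beside summed FPKM of 8 fibroblast or 7 endothelial markers, or of the other class (horizontal axes), with 1 point per library (circle, square and triangle for libraries 1, 2 and 3). In the right panel the 3 I/R+B12 libraries are at the upper left, with type IV sums of 375.81 to 475.41 and fibrillar sums of 52.1 to 131.84.

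Collagen needs enzymes and carriers before it becomes a fiber, and 43 of 56 listed genes of that pathway were tested. In I/R+B12 against Sham+B12, 2 of the 43 were called higher and 1 lower, beside 6.78% and 3.62% of all genes, and in the other comparisons 0 were called. Lox, the enzyme that starts crosslinking of fibrillar collagen, was at 6.54, 15.65 and 9.94 FPKM in I/R+B12 against 1.04, 1.47 and 1.42 in Sham+B12 (log2 difference 2.27, adjusted p = 0.032). Mmp14, a membrane-bound collagenase, was at 24.93, 28.91 and 19.93 against 4.93, 5.87 and 7.31 (1.86, adjusted p = 0.0241). Both were higher in all 3 libraries without overlap. Pcolce, which speeds removal of the procollagen C-terminal propeptide, was at 30.93, 17.47 and 26.89 against 36.69, 43.95 and 42.06 (-0.72, adjusted p = 0.0455). Leaving out any single Sham+B12 library or I/R+B12 2 ended all 3 calls. Pcolce kept its call in only 9 of 22 alternatives, against 17 of 22 for Lox and for Mmp14. The median over the 43 genes was 0.00 in that comparison, beside -0.51 for the chains.

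In I/R+B12 against I/R, 39 of the 43 pathway genes were below 0, as were 71.8% of all genes, and none was called. At an unadjusted p under 0.05, 17 were lower and 1 higher, beside the 24.6% and 3.90% of all genes given above, and the median was -0.38, beside -0.21 for all genes and -1.08 for the chains. With that background of negative differences, all 14 tested proline and lysine hydroxylases and their partners, all 6 chaperone and secretion genes and all 6 receptors were below 0. Serpinh1, the collagen-specific chaperone HSP47, was at 242.85, 221.02 and 133.68 FPKM in I/R against 181.15, 74.57 and 58.23 in I/R+B12, with I/R+B12 1 above I/R 3 (-1.05, adjusted p = 0.104). Timp3, a matrix-bound inhibitor of metalloproteinases, was at 79.16, 62.4 and 79.28 against 69.64, 148.15 and 144.79 (0.64, adjusted p = 0.154).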

How the data were processed

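Gene levels were deposited by the authors as FPKM per library, made with HISAT2 and StringTie on mm10 per the submitters' processing notes. Versions and annotation release are not given in the sources used here. Libraries were poly(A)-selected, per the labels' protocols. The authors' group means were not used. Values were analysed as log2(FPKM + 1) for the 13001 genes whose FPKM reached 1 in 3 libraries or more, in 1 fit of 4 groups with limma 3.58.1 (R 4.3.3, variance trend). Tests were two-sided, with Benjamini-Hochberg adjustment over all genes within each of 5 contrasts, and a gene was called at an adjusted p under 0.05. Fold changes on this scale understate changes of low genes. The chains named were a preset set of main chains, the 5 with the smallest p per contrast, every called chain and the 5 highest that did not pass. Of the pathway lists, called genes and the 3 with the smallest p per list could be named. The members and lists were chosen with earlier results of these data known. Same-numbered libraries did not deviate together on average (mean r = 0.014 over 18 pairs, 4 of them over 0.1), but single pairs ran from -0.412 to 0.391. The labels do not say what a number marks, so numbers were not used as pairs in the main fit. No libraries were identical. GENCODE M21 held 44 of 44 chains. Depth is an estimate: 78.07% to 83.55% of low values fell within 0.15 of a whole fragment, which limits precision and covers counting error only. The fit was tested on simulated data. Alternatives were other pseudocounts, filters, scaling, trend, weights, samples and a replicate block, and leaving out libraries. Figures used matplotlib 3.10.9.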

Additional observations from a re-analysis of the deposited data

How the results depend on the processing

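The medians and the called chains and genes kept their sign in every alternative run. Over median-ratio scaling and the fits with libraries left out, the chains whose difference changed sign in at least 1 fit numbered 7 of 21 in I/R against Sham (Col14a1, Col15a1, Col16a1, Col4a4, Col6a1, Col6a2 and Col6a6), 7 in I/R+B12 against Sham+B12 (Col13a1, Col18a1, Col27a1, Col4a5, Col5a2, Col5a3 and Col6a3), 1 in I/R+B12 against I/R, 4 in Sham+B12 against Sham and 5 for the interaction. In I/R against Sham, library weights gave 12 chains and 4411 genes called (33.9% of all genes), and the compared groups alone 2 genes. Leaving out both Sham 3 and I/R 3 (added after seeing the data) gave 56 genes, while the median over chains was 0.061 with no filter. In I/R+B12 against Sham+B12, chains called were 4 with median-ratio scaling, 6 with weights and 5 without both libraries. Beside them, 14.6%, 23.7% and 12.8% of all genes were called in the same fits. Genes called were 262 with no filter, 241 with the compared groups alone and 3082 with weights, and the median was -0.092 with no filter. In I/R+B12 against I/R, weights gave 14 chains and 4325 genes (33.3% of all genes). Median-ratio scaling gave 2 genes and a median of -0.82, the compared groups alone 2 genes, the fit without both libraries 5 genes, and no filter a median of -0.15. In Sham+B12 against Sham, no filter gave 3 genes and a median of -0.080. For the interaction, weights gave 7 chains and 1838 genes (14.1% of all genes), no filter 1 gene and the fit without both libraries 2 genes. Its median was -0.82 with a pseudocount of 0.1, -0.16 with no filter and -0.84 with the filter set to FPKM 5. With no filter, all 44 chains enter the median, most of them near 0. The cause of the other changes was not tested.

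With each library left out in turn, chains called ranged from 0 to 0 in I/R against Sham, 0 to 12 in I/R+B12 against Sham+B12, 0 to 16 in I/R+B12 against I/R, 0 to 0 in Sham+B12 against Sham and 0 to 9 for the interaction. Genes called ranged over 0 to 1, 0 to 3836, 0 to 4412, 0 to 1 and 0 to 1830, and medians over 0.27 to 0.47, -0.65 to -0.28, -1.24 to -0.90, -0.60 to -0.31 and -0.79 to -0.42, in the same order. In the comparisons that include I/R+B12, the highest counts came without I/R+B12 1. In those fits 29.5%, 33.9% and 14.1% of all genes were called, in the same order. With the replicate block, 2 chains and 1057 genes (8.13% of all genes) were called in I/R+B12 against Sham+B12, both chains at an adjusted p of 0.0282. No chain was called elsewhere, and Pcolce lost its call (0.0569). Summed collagen FPKM under median-ratio scaling averaged 575 in Sham hearts, 408 under B12, 710 after I/R and 620 after both. With 3 libraries a group, 1 library can decide a call, and at low FPKM the pseudocount shrinks differences.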
